A study of Mus musculus with 6 samples.

Results

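A set of 46 cell cycle genes was examined in mouse bone marrow-derived macrophages that lacked or carried an intact Cd28 gene. The set was defined by gene symbol, as 17 genes of DNA replication and the G1/S transition and 29 genes of mitosis, and matched to the deposited values by Entrez identifier. All 46 were found among the 14574 genes listed in any library, and all 46 passed the filter of a mean of at least 1 FPKM that left 10172 genes for testing. FPKM counts sequenced fragments relative to the length of the transcript and to the size of the library, so levels of different genes can be set side by side.

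The macrophages came from Cd28 KO mice and from C57BL/6J (WT) mice, 3 libraries per genotype, without any treatment. Femoral marrow of animals aged 6 to 10 weeks was grown for 7 days in DMEM with 10% fetal calf serum and 2-ME. Human M-CSF was present at 25 ng/ml and added every 2 days. Details not given in the sources used here include the targeted part of Cd28, the background strain of the knockout and the sex of the mice. Samples are numbered within each genotype, but no label calls each number a separate animal, so the p-values speak only of the spread from sample to sample, which between replicates 1 and 2 may be technical.

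M-CSF keeps macrophages and their precursors alive and drives them through the cell cycle, so a marrow culture holds dividing and resting cells side by side. Genes of replication are switched on at the G1/S transition, largely through E2F factors, and genes of mitosis later, through the MuvB complex with B-MYB and FOXM1. In bulk RNA, fewer dividing cells and less RNA per dividing cell cannot be told apart.

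Cd28 was lower in the Cd28 KO libraries, at 25.7, 24.2 and 26.9 FPKM, than in WT, at 38.2, 30.1 and 51.1 FPKM. The groups did not overlap (two-sided exact permutation test, p = 0.1, the lowest value possible with 3 and 3 libraries), and Cd28 RNA was thus still listed in all libraries of the knockout, at 64.3% of WT. Libraries listed 12768 to 13327 genes each, with read numbers not given in the sources used here. Libraries numbered 3 differed from the other 4 in either genotype: Y-linked Eif2s3y was at 39.1 and 31.8 FPKM there and listed at 0 elsewhere, so RNA of male animals was present in replicate 3 only. The sum of 8 macrophage markers was 14800 to 16900 FPKM in the knockout and 14100 to 14700 FPKM in WT, mostly from Lyz2. Without Lyz2 it was 3990 to 4310 against 4060 to 4470 FPKM. Granulocyte precursor, B cell, erythroid, mast cell and stromal markers each summed to at most 1.31 FPKM in any library.

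None of the 46 members was called in Cd28 KO against WT by limma at a Benjamini-Hochberg adjusted p below 0.05 over all tested genes. In that fit 0.0197% of all tested genes were called higher and 0% lower. A second fit treated the replicate number as a block, and again called no member, against 0.138% of all tested genes higher and 0.0393% lower. At an unadjusted limma p below 0.05 there were 2 members, Mcm6 and Birc5, without the block (4.35%, against 2.49% of all tested genes) and 5 with it (10.9%, against 7.89%), which were Mcm6, Gins2, Birc5, Ccnb2 and Ube2c. Groups did not overlap for 4 members that lay higher in Cd28 KO (8.70%, against 3.84% of all tested genes) and 3 that lay lower (6.52%, against 2.87%). The largest difference in size was that of Mcm6.

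The sequences before the MCM genes are shown because E2F control of this family is best known there, and because they let Mcm6 be set beside its partners, with Cdk1 added as a mitotic gene. Each run holds the 250 bases before the gene, or for Mcm5 the 209 bases, on the RefSeq annotation of GRCm38.p6, 5′ to 3′ on the gene's strand. Capitals mark matches, on either strand and allowed to overlap, to 3 kinds of motif. The first is an E2F-type core, spelled TTCCCGC or in the further forms TTCGCGC with its relatives TTGGCGC and also TTGCCGC. The second is the cell cycle homology region of mitotic genes, TTTGAA or else TTCGAA, and the last is CCAAT.
Mcm6, chr1:128359706-128359955, minus strand: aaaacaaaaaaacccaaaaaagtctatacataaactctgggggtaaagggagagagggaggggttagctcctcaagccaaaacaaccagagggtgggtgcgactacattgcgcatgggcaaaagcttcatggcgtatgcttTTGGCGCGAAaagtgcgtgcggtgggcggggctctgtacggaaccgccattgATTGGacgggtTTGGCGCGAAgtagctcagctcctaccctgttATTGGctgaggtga
Mcm3, chr1:20820313-20820562, minus strand: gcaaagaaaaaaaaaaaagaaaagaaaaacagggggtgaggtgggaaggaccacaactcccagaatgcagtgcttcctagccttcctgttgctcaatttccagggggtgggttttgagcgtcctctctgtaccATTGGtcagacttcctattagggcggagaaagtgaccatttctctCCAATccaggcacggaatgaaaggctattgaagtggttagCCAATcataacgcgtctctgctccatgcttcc
Mcm5, chr8:75109259-75109467, plus strand: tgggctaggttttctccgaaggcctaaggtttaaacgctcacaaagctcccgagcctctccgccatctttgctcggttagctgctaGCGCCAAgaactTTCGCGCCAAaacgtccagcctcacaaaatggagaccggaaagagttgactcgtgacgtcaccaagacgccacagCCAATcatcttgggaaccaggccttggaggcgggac
Mcm2, chr6:88898781-88899030, minus strand: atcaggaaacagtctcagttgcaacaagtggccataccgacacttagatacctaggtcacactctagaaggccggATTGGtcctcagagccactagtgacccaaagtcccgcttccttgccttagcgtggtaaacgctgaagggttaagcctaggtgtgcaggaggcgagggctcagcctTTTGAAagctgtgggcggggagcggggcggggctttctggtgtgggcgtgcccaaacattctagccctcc
Cdk1, chr10:69352913-69353162, minus strand: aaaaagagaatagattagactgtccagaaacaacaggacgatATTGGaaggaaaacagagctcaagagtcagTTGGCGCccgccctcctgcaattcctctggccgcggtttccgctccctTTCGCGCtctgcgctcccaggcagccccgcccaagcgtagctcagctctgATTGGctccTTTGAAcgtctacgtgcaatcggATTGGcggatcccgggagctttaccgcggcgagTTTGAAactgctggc

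The Mcm6 window held 4 E2F-type matches, overlapping in pairs that begin 109 and 46 bases before the start, and 2 CCAAT matches. Mcm5 held 3 E2F-type matches and Mcm2 and Mcm3 none with these letters. Mcm7, whose window lies mostly inside its gene and is not printed, held 1. Cdk1 held 2 E2F-type, 2 homology region and 3 CCAAT matches. For counts over all genes, 1 window per gene was taken, the 250 bases before the RefSeq start nearest to the gene's annotated 5′ end, and 38 of the 46 members had one. In 16 of the 38 that start lies inside the annotated gene, so the window reaches into it. For Kif2c, Ncapd2, E2f1, Cdc6 and Aurka the window lies wholly inside the gene, and any matches there are included in the shares below.

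An E2F-type match was found in 6 of 14 replication members (42.9%) and 5 of 24 mitosis members (20.8%). The share was 8.03% of all 27018 genes and 10.1% of the 17486 protein-coding genes. The homology region was found in 14.3% of replication and 45.8% of mitosis members, against 17.5% of all and 16.5% of protein-coding genes. CCAAT was found in 57.1% and 83.3%, against 34.5% and 36.5%. Mcm4, Gins2, Ccne2, Aurkb, Ccna2, Foxm1, Kif20a and Tpx2 had no entry. A match is a description of letters, not of a bound site.

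The MCM genes encode the 6 subunits of the ring-shaped helicase that is loaded at replication origins and unwinds DNA at the fork, with 1 copy of each subunit per ring. Mcm6 (Entrez 17219, GRCm38 chromosome 1, 128331575 to 128359705) stood at 35.2, 35.8 and 37.4 FPKM in Cd28 KO and at 51.9, 55.3 and 56.4 FPKM in WT. Every Cd28 KO library lay far below every WT library, and replicate 3 lay with the others of its genotype. The means were 36.1 ± 1.10 and 54.6 ± 2.36 FPKM (SD, n = 3 each), so that Cd28 KO was at 66.2% of WT. Its log2(FPKM + 1) difference was -0.58 ± 0.09 (SE), which ranked 13 by p among the 10172 genes, at a limma adjusted p of 0.32 without the block and 0.051 with it. By replicate number the difference was -0.55, -0.61 and -0.58. In replicates 1 and 2 alone Mcm6 was called, at -0.58 and a limma adjusted p of 0.020. That fit called 54 genes higher and 42 lower among 10155, and 1330 had an unadjusted limma p below 0.05. The spread it rests on, between replicates 1 and 2, may be technical.

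The other 5 subunits were all slightly lower in Cd28 KO, by log2 differences between -0.16 and -0.11, none of them past the test (limma adjusted p = 0.9995 for each). Mcm3, whose gene also lies on chromosome 1, stood at 31.2, 33.7 and 34.8 FPKM in Cd28 KO and 35.1, 36.8 and 39.6 in WT, without overlap. Mcm4 stood at 13.7, 14.8 and 14.4 against 15.4, 15.5 and 15.7 FPKM, also without overlap. These are narrow gaps, at 89.3% and 92.1% of WT. Mcm2 ranged from 15.5 to 17.7 FPKM against 16.4 to 20.4, Mcm5 from 18.9 to 21.8 against 21.2 to 24.8 and Mcm7 from 27.2 to 31.4 against 29.6 to 32.8, each with overlapping groups. For Mcm2 the sign turned to 0.01 in replicates 1 and 2 alone.

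**Figure D1:**
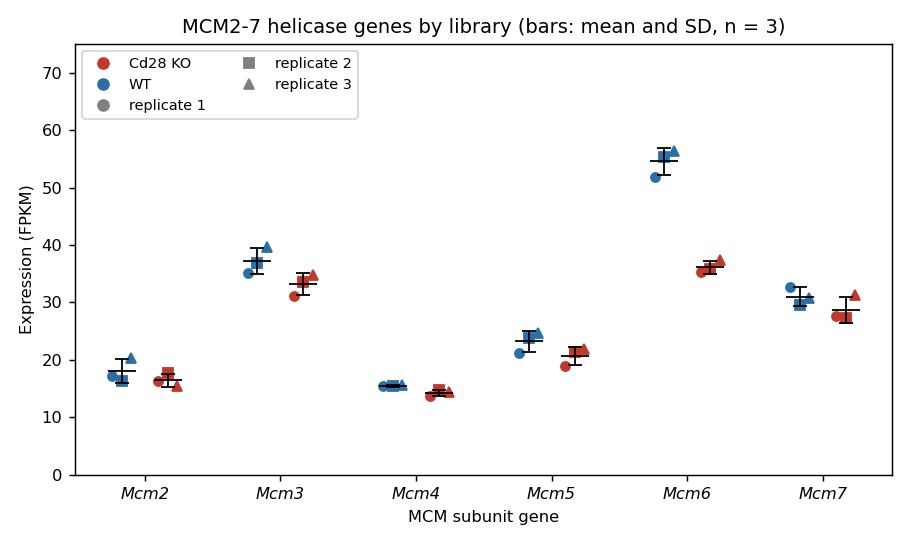
Expression in FPKM of the 6 MCM helicase genes, with WT in blue and Cd28 KO in red; symbols mark replicates 1 to 3, and the bars give mean and SD (n = 3). The Cd28 KO values of Mcm6 lie at 35.2 to 37.4 FPKM and its WT values at 51.9 to 56.4, while the groups of the other 5 genes lie close together or overlap.

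To set Mcm6 against its partners within each library, its FPKM was divided by the mean FPKM of the other 5 subunits. The quotient was 1.64, 1.56 and 1.59 in the Cd28 KO libraries and 2.13, 2.27 and 2.15 in WT. Mcm6 thus remained above the average of its partners in all 6 libraries, but by a smaller margin in Cd28 KO (1.59 ± 0.0383 against 2.18 ± 0.0741, SD, n = 3 each). On a log2 scale the ratio to the mean of the 5 partners differed by -0.46 between the genotypes, and the ratios to single partners by -0.43 (Mcm5 and Mcm3) to -0.48 (Mcm4 and Mcm7), each without overlap. The same ratio for every other subunit was higher in Cd28 KO, by 0.06 for Mcm3 and Mcm5, 0.11 for Mcm2 and Mcm4 and 0.12 for Mcm7, with Mcm6 being part of the average they were set against. Among those 5, the groups were free of overlap for Mcm4 alone. No p is given for these ratios, since Mcm6 was singled out with earlier results of these data known.

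**Figure D2:**
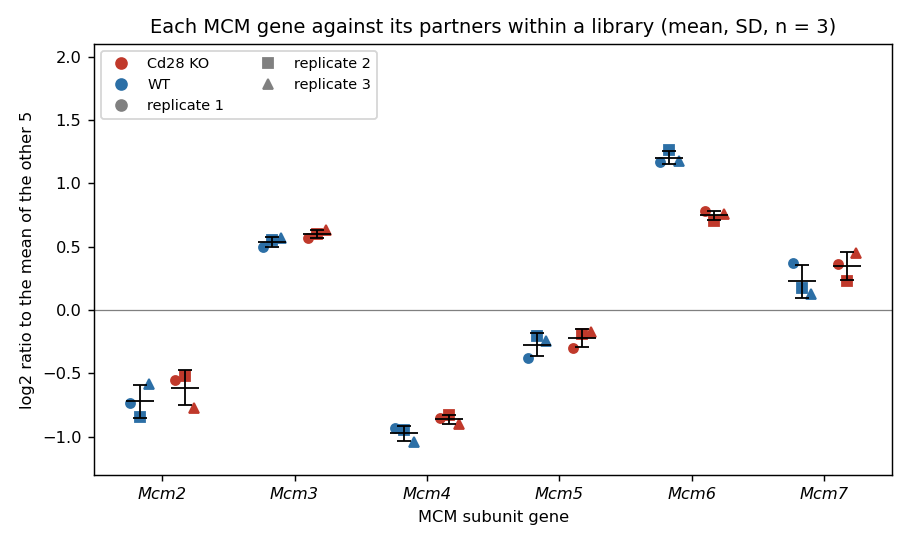
Each MCM gene's log2 ratio to the mean of the other 5 in the same library, by genotype (WT blue, Cd28 KO red), with mean and SD (n = 3). The Mcm6 ratio is 0.75 in Cd28 KO and 1.20 in WT, and the other 5 ratios shift by 0.06 to 0.12 in the opposite direction.

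Mcm6 lies 67.6 Mb from Cd28 on chromosome 1, and its neighbours were examined after the values were seen. Dars, the aspartyl-tRNA synthetase gene next to it, stood at 26.2, 22.7 and 23.4 FPKM in Cd28 KO and 28.4, 29.4 and 29.5 in WT, a log2 difference of -0.27 ± 0.11 (SE). R3hdm1 and Zranb3 also lay lower without overlap, at log2 differences of -0.31 and -0.28, against a share of 2.87% of all tested genes. Ubxn4, which lies between R3hdm1 and Mcm6, was at 22.9 ± 0.324 against 24.1 ± 1.42 FPKM. Cxcr4, the chemokine receptor gene beyond Dars, was at 213 ± 34.4 against 176 ± 53.3 FPKM, and in both genes the groups overlapped. They also overlapped for the other tested genes within 1 Mb, Mgat5 (-0.30), Rab3gap1 (-0.10) and Ccnt2 (0.21). None of these neighbours passed the test, with limma adjusted p values of 0.9995 without the block and between 0.51 and 0.92 with it.

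Of the 578 tested genes on chromosome 1, 6.40% had an unadjusted limma p below 0.05, against 2.49% of all tested genes. Groups did not overlap for 6.57% that lay lower and 6.23% that lay higher, against 2.87% and 3.84%. With the block, all 4 genes called lower and 6 of the 14 called higher lie on this chromosome. Loss of Cd28 and sequence carried along with the allele on chromosome 1 cannot be told apart in this design, and their part in the Mcm6 difference was not tested.

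The 4 members on chromosome 1 did not share a direction. Beside Mcm6 and Mcm3, Nuf2, a subunit of the NDC80 kinetochore complex, stood at 9.52, 12.1 and 10.3 FPKM in Cd28 KO and 9.39, 9.11 and 8.79 in WT, a log2 difference of 0.20 ± 0.14 (SE). Its groups did not overlap, but the lowest Cd28 KO value was almost level with the highest WT value. Cenpf, the gene of a large kinetochore protein, was the lowest member in level, at 1.63 to 2.57 against 1.91 to 2.13 FPKM. The further pathway genes tested on this chromosome are given outside the rule for named genes. Orc2, a subunit of the origin recognition complex 2.24 Mb from Cd28, had a log2 difference of 0.00. Hjurp, a centromere chaperone gene 27.5 Mb from Cd28, was at -0.01. Sgo2a at 2.72 Mb had 0.13, Bard1 at 10.25 Mb 0.06 and Prim2 at 27.08 Mb 0.02. Lin9 and Nek2, farther away, had 0.01 and -0.04, and the groups overlapped for all of these genes.

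Helicase loading and fork genes went in both directions. Gins2, a subunit of the GINS complex that joins MCM2-7 and CDC45 in the active helicase, stood at 12.3, 11.2 and 12.1 FPKM in Cd28 KO and 8.99, 7.43 and 10.9 in WT. Its groups did not overlap, the gap being widest for replicate 2, and Cd28 KO was at 131% of WT, the highest percentage among the members. The log2 difference was 0.36 ± 0.16 (SE), at a limma adjusted p of 0.9995 without the block and 0.50 with it. Pcna, the sliding clamp and the most abundant member, stood at 341, 296 and 389 FPKM against 344, 373 and 332 FPKM, with the genotypes interleaved. Cdc6, the loader of MCM2-7, was at 2.27 ± 0.279 against 2.49 ± 0.205 FPKM.

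Cdt1, which brings MCM2-7 to the origin together with CDC6, differed between replicates far more than between genotypes. It stood at 26.7 and 27.9 FPKM in replicates 1 and 2 of Cd28 KO, 32.4 and 33.3 in those of WT, and 82.1 and 84.1 in replicate 3. The replicate 3 libraries were on average 2.76-fold above the others. Its log2 difference between genotypes was -0.18 ± 0.52 (SE) without the block and -0.18 ± 0.10 with it (limma adjusted p = 0.9995 and 0.71). It turned positive without the first Cd28 KO library (0.09), without the second (0.06) and without WT replicate 3 (0.26). Those fits had no block, so leaving out a library gave the high replicate 3 values unequal weight in the genotypes. By replicate number the difference was -0.27, -0.25 and -0.03.

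Genes that supply deoxynucleotides lay close to WT. Rrm2, the regulated subunit of ribonucleotide reductase, stood at 16.3, 17.1 and 17.2 FPKM in Cd28 KO and 19.3, 16.6 and 22.4 in WT, with overlap and a log2 difference of -0.18 ± 0.14 (SE). Rrm1, its partner subunit, was at 21.4 ± 0.942 against 23.1 ± 1.87 FPKM. The genes of the thymidine pathway leaned the other way. Tyms, thymidylate synthase, was at 16.2, 18.1 and 16.2 against 17.3, 17.1 and 12.2 FPKM, where the low WT value is replicate 3. Tk1, thymidine kinase, was at 23.8, 21.2 and 26.8 against 23.1, 19.7 and 23.6 FPKM.

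The G1/S drivers also overlapped between the genotypes. E2f1, an activating E2F factor, ranged over 21.0 to 24.9 FPKM in the knockout and 19.7 to 25.8 FPKM in WT. Ccne1 and Ccne2, the E-type cyclins that start S phase with CDK2, were at 4.46 ± 0.747 against 4.73 ± 0.393 and 4.37 ± 0.677 against 4.75 ± 0.880 FPKM. Their log2 differences lay between -0.09 and -0.06, within 1 SE of 0.

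Taking the replication members together, 14 of 17 had a negative difference and 3 a positive one (Gins2, Tyms and Tk1). Their median log2 difference was -0.10, against 0.00 over all tested genes, of which 50.9% were negative. Without Mcm6 the median of the remaining 16 was also -0.10. Groups did not overlap for 3 lower members, all of them MCM genes (17.6%, against 2.87% of all tested genes), and for 1 higher member (5.88%, against 3.84%). By replicate number the median was -0.16, -0.06 and -0.03, against 0.01, 0.04 and -0.05 over all tested genes. In replicate 3 it therefore did not lie below that of all tested genes. The per-library median of log2(FPKM + 1) over the 17 genes was 4.315, 4.475 and 4.43 in Cd28 KO. In WT it was 4.475, 4.369 and 4.551, and these ranges overlap.

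Mitotic genes leaned upward, with 24 of 29 positive and a median log2 difference of 0.07, against 49.1% positive among all tested genes. Groups did not overlap for 3 of them, all higher, Birc5, Cdk1 and Nuf2 (10.3%, against 3.84% of all tested genes), and for 0 lower ones. Birc5 encodes survivin, the subunit that brings the chromosomal passenger complex to the centromere. It stood at 45.3, 45.9 and 48.0 FPKM in Cd28 KO and 39.4, 37.3 and 35.6 in WT. All 3 Cd28 KO values lay above all WT values by a clear margin, at 124% of WT. The log2 difference was 0.30 ± 0.10 (SE), at an unadjusted limma p of 0.015 and adjusted p values of 0.9995 without the block and 0.43 with it. Its partners Aurkb and Cdca8 (borealin) were at 107% and 103% of WT and the spindle pole kinase Aurka at 111%, all with overlapping groups. Plk1, the polo-like kinase of mitotic entry, ranged from 9.05 to 16.1 against 10.2 to 14.2 FPKM.

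Cyclins and CDK1 make up the switch into mitosis. Cdk1 stood at 13.4, 14.0 and 16.0 FPKM in Cd28 KO and 12.2, 12.9 and 13.2 in WT, just free of overlap, with a log2 difference of 0.17 ± 0.12 (SE). Ccnb2 was at 25.5, 26.7 and 35.9 against 19.6, 19.9 and 31.3 FPKM. It was higher in Cd28 KO for each replicate number, and both replicate 3 libraries lay above the other 4. This was the largest log2 difference in the mitotic set, 0.32 ± 0.22 (SE) without the block and ± 0.10 with it (limma adjusted p = 0.9995 and 0.43). Ccnb1 was at 11.4, 12.3 and 11.8 against 9.33, 8.64 and 12.8 FPKM, where WT replicate 3 was the highest value. Ccna2, cyclin A, was at 112% of WT. Foxm1, the transcription factor of this gene set, had a log2 difference of 0.00 ± 0.18 (SE).

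Among genes of the anaphase-promoting complex pathway, Ube2c, its ubiquitin-conjugating enzyme, stood at 40.0, 52.4 and 53.1 FPKM against 36.9, 40.6 and 43.4 in WT (log2 difference 0.25 ± 0.14, SE). Cdc20, its activator, was at 11.3, 16.1 and 11.8 against 10.8, 12.6 and 9.70 FPKM. In both genes Cd28 KO was higher for each replicate number while the groups overlapped. The spindle checkpoint kinases Bub1 and Bub1b were at 101% and 108% of WT, and the kinetochore genes Spc25 and Cenpe at 103% and 99.5%. All 7 motor and spindle genes (Kif11, Kif20a, Kif2c, Tpx2, Nusap1, Hmmr and Prc1) had a positive difference, between 0.02 and 0.21, with overlapping groups. Prc1, which bundles the microtubules of the central spindle, had the largest of these differences, at 13.1, 16.4 and 11.1 against 11.7, 12.6 and 10.1 FPKM.

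Genes most often used as proliferation markers did not separate the genotypes. Mki67, the Ki-67 antigen, stood at 12.8, 17.7 and 11.7 FPKM in Cd28 KO and 12.8, 13.2 and 18.5 in WT. Replicate 1 was level, replicate 2 was higher in Cd28 KO and replicate 3 was higher in WT. Top2a, topoisomerase II alpha, was at 22.8, 28.4 and 20.9 against 22.4, 22.8 and 25.0 FPKM, with the same order by replicate. The condensin subunits Ncapg and Ncapd2 were at 105% and 102% of WT.

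**Figure D3:**
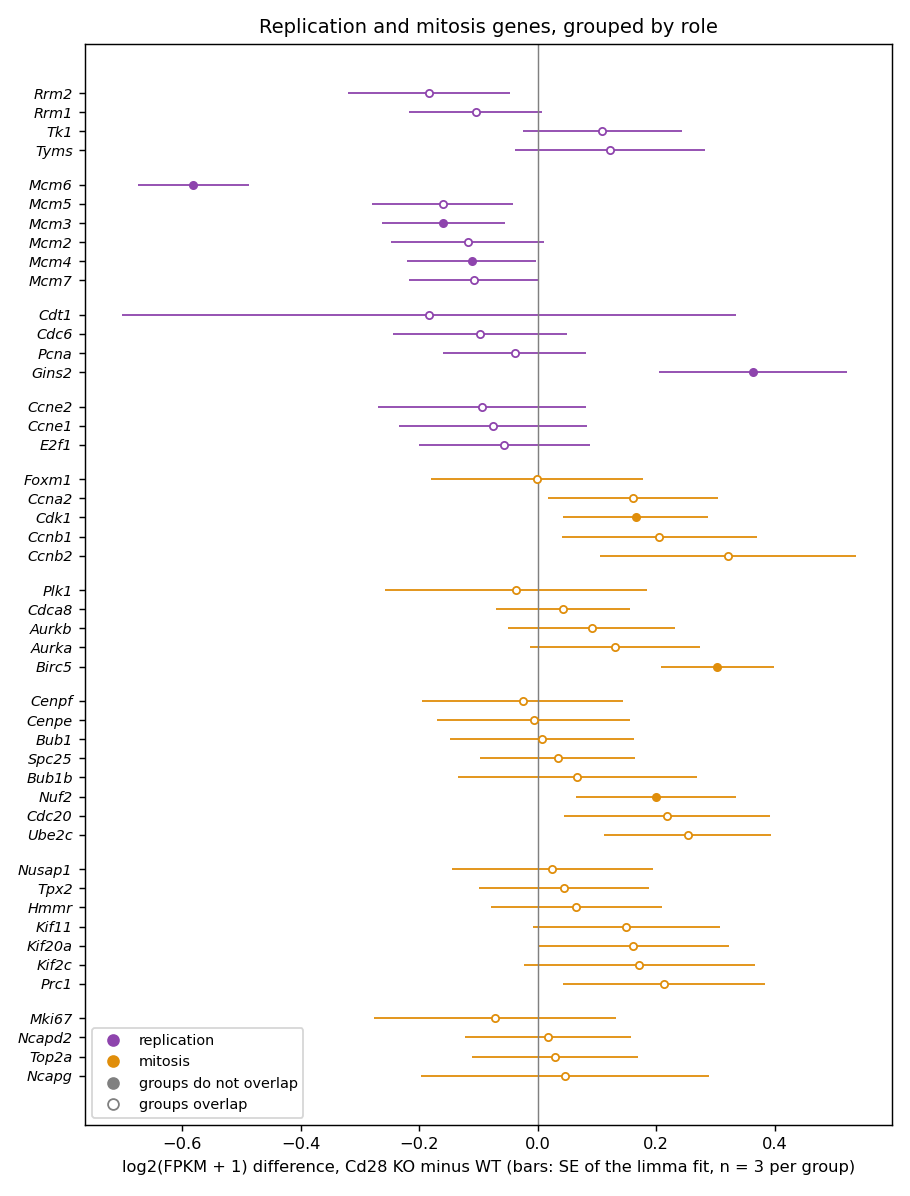
Log2(FPKM + 1) difference, Cd28 KO minus WT, with its SE from the limma fit (n = 3 per group) for the 46 members, grouped by role; filled points are genes whose groups do not overlap. Mcm6 stands alone at -0.58, the other members lie between -0.18 and 0.36, and 24 of 29 mitotic genes lie to the right of 0.

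The upward lean of the mitotic genes was smaller without 1 library. That library, Cd28 KO replicate 2, held the highest of the 6 values for 18 of the 29 genes, while the corresponding count was 0 to 6 in each other library. By replicate number the median log2 difference was 0.04, 0.30 and -0.04, against 0.01, 0.04 and -0.05 over all tested genes. Without Cd28 KO replicate 2 the median was 0.01 with 16 of 29 positive, and lay 0.04 above that of all tested genes (-0.03). It was 0.08 to 0.14 when any other library was left out. On the TPM scale it was likewise 0.01 with 16 of 29 positive, while the median of all tested genes moved to -0.06, so that the mitotic median lay 0.07 above that of all genes on either scale. The per-library median of log2(FPKM + 1) over the 29 genes was 3.62, 3.89 and 3.60 in Cd28 KO and 3.51, 3.50 and 3.70 in WT. These ranges overlap.

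**Figure D4:**
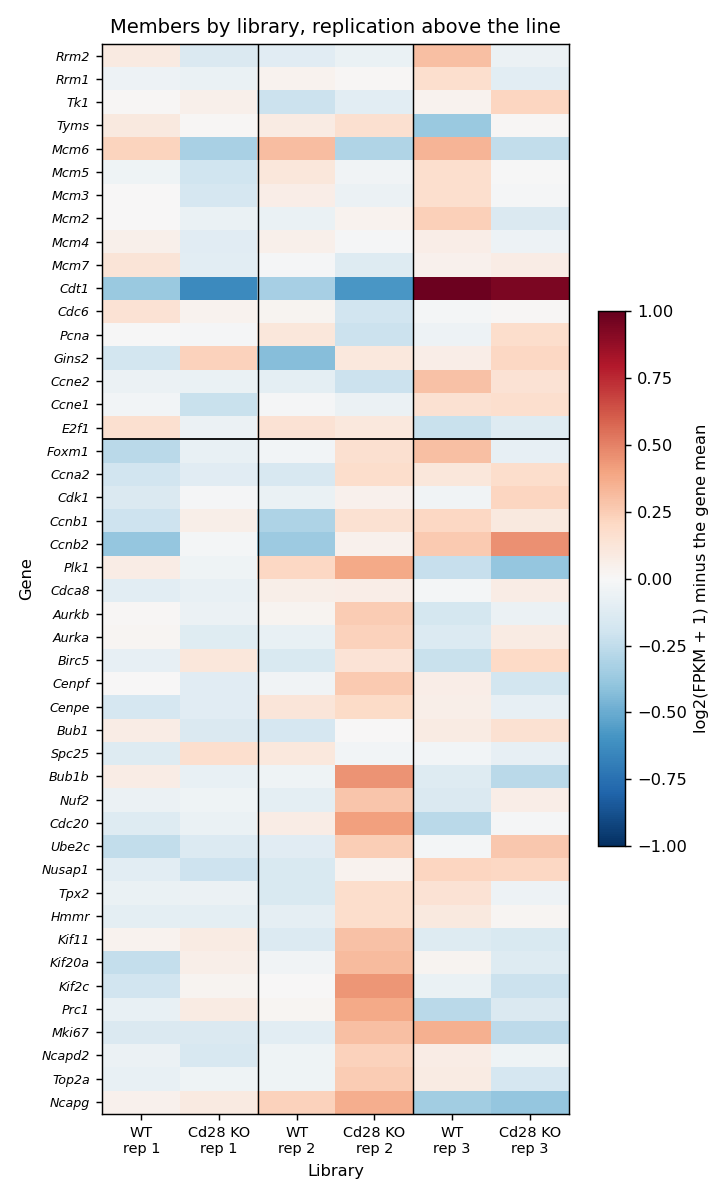
Log2(FPKM + 1) of each member minus its mean over the 6 libraries, with the libraries paired by replicate number and the replication genes above the horizontal line; red is above the gene's mean and blue below. Cd28 KO replicate 2 is red for most mitotic genes, Mcm6 is blue in all 3 Cd28 KO libraries, and Cdt1 is dark red in both replicate 3 libraries.

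Differences between replicate 3 and the rest also touched the members, at shares below those of all tested genes. Both replicate 3 libraries lay above the other 4 for 6 members (13.0%, against 15.3% of all tested genes) and below them for 7 (15.2%, against 33.7%). Those above were Cdt1, Ccne1, Ccne2, Ccnb2, Bub1 and Nusap1, and those below were Tyms, E2f1, Aurkb, Plk1, Bub1b, Prc1 and Ncapg. Among the latter, Ncapg was at 0.620 times and Plk1 at 0.702 times the mean of the other libraries. The genotypes are balanced across this difference, with 1 such library each.

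Further genes of the pathway, 161 in 15 lists, were described in the same way, and 155 were tested. None was called by limma with or without the block. The median log2 difference over the 155 was 0.01, and groups did not overlap for 7 higher (4.52%) and 2 lower (1.29%), shares near or below those of all tested genes. Among origin and loading genes, Orc4 was at 7.49 ± 0.812 FPKM in the knockout against 5.56 ± 0.321 FPKM in WT and Orc6 at 9.50 ± 1.01 against 7.95 ± 0.655. Dck, deoxycytidine kinase of the nucleoside salvage pathway, was at 47.0 ± 2.15 against 38.1 ± 1.87 FPKM. Ccnd1, the D-type cyclin through which M-CSF drives G1, was at 59.1, 59.4 and 48.7 against 66.6, 71.9 and 62.0 FPKM, lower without overlap (log2 difference -0.26 ± 0.12 SE, limma adjusted p = 0.9995, and 0.52 with the block). Lig1, the ligase of the lagging strand, was the other lower gene without overlap, at 16.8 ± 1.35 against 18.5 ± 0.622 FPKM.

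The remaining higher genes without overlap were Cdkn2d, a CDK inhibitor, at 24.5 ± 1.73 against 21.0 ± 0.741 FPKM, Cenpm of the centromere at 5.46 ± 0.513 against 4.41 ± 0.502, Ckap2 of the spindle at 6.47 ± 0.585 against 4.99 ± 0.533 and Rad51ap1 of recombination at 5.08 ± 0.439 against 4.36 ± 0.0954. The distant MCM paralogues were low and overlapped, Mcm8 at 1.32 ± 0.527 against 1.55 ± 0.0503 FPKM and Mcm9 at 3.38 ± 0.138 against 3.33 ± 0.846. For the remaining genes, those of smallest p in each list also did not separate the genotypes: Cdc45 and Gins3 of the replisome had log2 differences of -0.13 and -0.15, and Pole3 and Pold4 of the DNA polymerases 0.29 and 0.18. Dna2 was at -0.16, Dctpp1 at 0.21, Cdk6 at -0.19 and Cdkn1c at -0.38. Mybl2, which encodes B-MYB, was at -0.17 and its partner Rbbp4 at 0.08, while E2f3 and E2f7 were at -0.15 and -0.16. In the mitotic lists Spc24 was at 0.30, Anln at 0.37, Ncapg2 at 0.24, Cdc25c at 0.20, Pttg1 at 0.15 and Stag1 at -0.15. Rad54l of recombination was at 0.17.

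Markers of less mature cells differed in part between the genotypes. Kit, the stem cell factor receptor of progenitors, was at 1.74, 1.60 and 1.73 FPKM in Cd28 KO and 2.80, 3.12 and 3.88 in WT, and the 4 progenitor markers summed to 2.44 to 4.69 against 4.41 to 6.60 FPKM. Among monocyte markers, Plac8 was at 6.30, 7.24 and 9.44 against 2.63, 2.28 and 5.86 FPKM, without overlap, Ccr2 ranged from 20.1 to 29.7 against 20.9 to 21.8 FPKM with overlap, and Ly6c2 was at most 1.79 FPKM in any library. The osteoclast markers ranged from 18.4 to 31.7 against 27.9 to 43.0 FPKM in sum. Those of dendritic cells ranged from 2.16 to 3.13 against 1.83 to 3.43. Those of T cells ranged from 2.95 to 6.40 against 3.59 to 6.42, nearly all of it Cd4. Cd3d was at 0, and Cd3e and Cd3g were at 0.07 and 0.21 FPKM in WT replicate 3 and 0 elsewhere. None of the tested markers was called by limma, and their part in the levels of the cell cycle genes was not tested.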

How the data were processed

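RNA sequencing libraries of 6 macrophage cultures were grouped by their titles. The deposited values are FPKM made by the authors with Bowtie and RSEM on genome build GRCm38, per the submitters' processing notes, with versions, annotation and depth not given in the sources used here. Files list only genes above 0, and a gene absent from a file was taken as 0. Of 14574 Entrez identifiers, 14551 matched RefSeq for GRCm38.p6, the source of symbols, coordinates and promoter windows.

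The test was limma 3.58.1 in R 4.3.3 for genes averaging 1 FPKM or more (empirical Bayes with trend) on log2(FPKM + 1), a scale that understates the change of low genes, without a block and, as an alternative, with the replicate number as a block. A gene was called at an adjusted p below 0.05, two-sided, with Benjamini-Hochberg adjustment over all tested genes. The fits were tested on simulated data. Deviations from the group means correlated across genes at 0.752, 0.505 and 0.783 between libraries of the same number, all above 0.1. Libraries of equal number were therefore treated as pairs in the block, without a label that says so. Between number 1 of one genotype and number 2 of the other the values were 0.663 and 0.535. Between number 3 and the other numbers they were -0.776 to -0.571. The values thus set replicate 3 apart, but cannot tell which libraries numbered 1 and 2 belong together. For those numbers, differences by replicate number rest on the numbering alone. No pair of libraries shared more than 0.46% of values.

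Members, lists and the contrast of Mcm6 with its partners were chosen with earlier results of these data known. The rule for named genes took the MCM genes, members without overlap between groups, the 5 most positive and negative of each class, role-defining members, those on chromosome 1 and the 2 genes of smallest p in each further list. Other members are given by percentages or signs, and the neighbours of Mcm6 were added after values were seen. Further pathway genes on chromosome 1 were added outside that rule. Alternatives were the offset, the filter, the scaling (TPM, median centring, quantile), the block, replicates 1 and 2 alone and each library left out. Tables and plots were made in Python 3.11.15 (SciPy 1.17.1, Matplotlib 3.10.9). A further monocyte marker is not reported here.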

Additional observations from a re-analysis of the deposited data

How the results depend on the processing

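The log2 difference of Mcm6 lay between -0.65 and -0.56 in all 14 alternatives fitted, and it was called in replicates 1 and 2 alone (-0.58, limma adjusted p = 0.020); in the others its adjusted p ranged from 0.051, with the replicate block, to 1.00, with median centring. The ratio of Mcm6 to its partners differed by -0.48 to -0.43 in every alternative run. The replication median stayed negative (-0.17 to -0.07) and the mitosis median positive (0.01 to 0.17) in all 14. The -0.17 is from the TPM scale, where the median of all tested genes was -0.06. Relative to all tested genes, the replication median ranged from -0.19, without Cd28 KO replicate 3, to -0.04, without Cd28 KO replicate 2. The mitosis median ranged from 0.04, without Cd28 KO replicate 2, to 0.16, without Cd28 KO replicate 1. Called members were 0 in each except the 1 lower in replicates 1 and 2. Over all genes, limma called 14 higher and 4 lower with the replicate block, 54 and 42 in replicates 1 and 2, and 3 lower without a filter. The block, which takes the replicate numbers as pairs, changed no call among the members. Leaving out a library, the Cd28 difference ranged from -19.1 to -8.56 FPKM.

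No gene whose sign turned had passed the test. The genes given here are the 17 named under the rule whose sign turned in at least 1 alternative. Members not named under it also turned sign, on the TPM scale among others, and are not listed. In replicates 1 and 2 alone, Tyms was at -0.0074, Mcm2 at 0.012, Foxm1 at 0.19, Plk1 at 0.026, Cenpe at 0.062, Cenpf at 0.087, Mki67 at 0.20 and Pttg1 at -0.051. With median centring, Foxm1 was at 0.0059 and Cenpe at 0.00024, with quantile normalization at 0.0050 and 0.0035, and with an offset of 0.1 FPKM Foxm1 at 0.00034. On the TPM scale Top2a was at -0.030 and Mcm9 at -0.013. There 16 mitosis members were positive and 13 negative, against 24 and 5 in the main fit. With single libraries left out, these genes changed sign: Tyms from -0.032 to 0.20, Pcna from -0.14 to 0.060, Cdt1 from -0.70 to 0.26, Ccne1 from -0.18 to 0.016, Ccne2 from -0.19 to 0.029, E2f1 from -0.18 to 0.0084, Foxm1 from -0.14 to 0.15, Plk1 from -0.23 to 0.15, Cenpe from -0.10 to 0.053, Cenpf from -0.16 to 0.060, Mki67 from -0.24 to 0.087, Top2a from -0.093 to 0.12, Mcm9 from -0.066 to 0.19, Ncapg2 from -0.00055 to 0.55 and Rad54l from -0.11 to 0.33. Those fits had no block, so leaving out a library gave replicate 3 unequal weight in the genotypes, which matters for genes such as Cdt1. FPKM without read counts limits what can be said of low genes such as Cenpf, Cdc6 and Mcm8.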

Other observations

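Some cell cycle regulators outside the 46 genes differed between replicate 3 and the other libraries in both genotypes. Over the 155 tested genes of the further lists, both replicate 3 libraries lay above the other 4 for 19 (12.3%, against 15.3% of all tested genes) and below them for 51 (32.9%, against 33.7%). The genes named here were chosen after their values were seen. Cdkn1a, which encodes the CDK inhibitor p21, stood at 160.3 and 154 FPKM in replicate 3 of Cd28 KO and WT, against 56.1 to 72.8 FPKM in the other 4 libraries. Wee1, the kinase that holds CDK1 inactive, stood at 16.3 and 17.4 against 3.94 to 5.40 FPKM. Ccnf, cyclin F, stood at 16.0 and 18.3 against 6.53 to 9.05 FPKM, and Cenpa, the centromeric histone, at 56.6 and 60.8 against 21.6 to 27.6 FPKM. Cdkn1b, which encodes the CDK inhibitor p27, went the other way, at 7.50 and 7.29 against 16.7 to 22.4 FPKM. In each of these genes the genotypes lay close together within replicate 3.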
